A study of Mus musculus with 721 samples.

Results

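The genes described here encode the proteins of the cytoplasmic ribosome, followed from Neurog3-positive progenitors to hormone-making cells of the mouse embryonic pancreas. They were taken by name alone: every entry called Rpl or Rps followed by a number, with an optional a, x or l, together with the stalk genes Rplp0, Rplp1 and Rplp2 and the small-subunit gene Rpsa. This gave 85 of 32806 Ensembl genes, 51 named for the large subunit and 34 for the small subunit. The cells were eGFP-positive cells of Neurogenin 3-eGFP embryos, an eGFP reporter for the transcription factor that starts endocrine differentiation, sorted singly on 5 embryonic days from E11.5 to E15.5. The labels name no strain, animal or allele of the reporter, and every group below shares it. An eGFP protein can outlast the Neurog3 transcript, so sorted cells include those that have moved past the Neurog3 stage.

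A ribosome holds a single copy of almost every ribosomal protein, and the genes are among the most highly transcribed of any growing cell. Their transcripts begin with a C followed by a run of pyrimidines, the 5′ terminal oligopyrimidine (TOP) tract, through which mTOR signalling sets how much of the messenger is translated. Proliferating cells make ribosomes in step with growth. In the pancreas, progenitors that switch on Neurog3 leave the cell cycle, pass through a stage marked by the transcription factor Fev, and then switch on glucagon or insulin, whose cells devote much of their translation to secreted hormone.

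Cell states were set by the transcripts themselves, with FPKM as the scale (fragments per kilobase of transcript, relative to a cell's mapped fragments). Neurog3-only cells held Neurog3 at 10 FPKM or more, with Fev under 10 and no hormone at 100 FPKM. Neurog3 and Fev cells held both, Fev-only cells held Fev alone, glucagon cells held Gcg at 100 FPKM or more without insulin at that level, and insulin cells held Ins1 or Ins2 at 100 FPKM or more without Gcg at that level. Of 721 cells, 658 passed the minimum depth and gene number. They comprised 186 Neurog3-only, 86 Neurog3 and Fev, 70 Fev-only, 51 glucagon and 57 insulin cells, with 17 double hormone cells and 191 cells of none of these states, which are described only. The cells of 1 day and 1 sequencing run made up a set, 8 in all, and the mean of a state in a set (5 or more cells) was the unit of every test. Because no animals are named, p-values measure the spread between sets only, and whether the runs of a day came from different embryos is not known.

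Depth ran from 101675 to 1990000 fragments per kept cell (median 587177), and the sets' median gene numbers ran from 5044.5 to 6636.5. None of the 96 spike-in entries was above 0 in a kept cell, so all values are relative levels, and fewer ribosomal transcripts per cell cannot be told apart from more of all other transcripts. The state names matched their other markers in part: at least 2 pan-endocrine markers were present in all 70 Fev-only, 86 Neurog3 and Fev and 57 insulin cells and in 50 of 51 glucagon cells, against 153 of 186 Neurog3-only cells (82.3%). Markers of other cell types (at least 2 of a list) were present in 23 Neurog3-only cells (12.4%), mostly of the acinar or tip list with 17 cells, and in 4 Fev-only (5.71%), 5 Neurog3 and Fev, 12 glucagon (23.5%) and 7 insulin cells (12.3%). Among Neurog3-only cells they were present in 5 of 7 at E11.5 and in 4 of 7 at E12.5. The Neurog3-only means of those days therefore rest mostly on such cells. The E12.5 set and the first run of E13.5 were low in GC-rich transcripts, and what this did to the ribosomal protein genes is described below.

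Promoter sequence near the transcription start is shown first, because the TOP tract is the feature these genes are best known to share. RefSeq promoters (GRCm38.p6) were found for 63 of the 85 genes, with 75 starts among them. Each line gives 40 bases before and 20 after a RefSeq start, 5′ to 3′ on the gene's own strand. Capitals mark the longest run of C and T that overlaps the 5 bases on either side of the start. The first 5 genes are members called lower in one or more endocrine states, and the last pair are the paralogues Rpl22 and Rpl22l1, of which Rpl22 was called lower and Rpl22l1 was not.
Rps19: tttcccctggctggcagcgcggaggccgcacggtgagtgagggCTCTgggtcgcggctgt
Rpl35: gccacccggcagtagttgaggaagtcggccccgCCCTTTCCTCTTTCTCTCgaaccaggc
Rps9: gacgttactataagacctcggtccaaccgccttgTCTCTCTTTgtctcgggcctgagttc
Rps27: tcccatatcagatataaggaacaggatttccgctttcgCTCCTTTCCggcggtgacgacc
Rpl12: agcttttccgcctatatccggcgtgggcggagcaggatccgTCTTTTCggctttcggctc
Rpl22: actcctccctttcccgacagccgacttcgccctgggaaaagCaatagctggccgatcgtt
Rpl22l1: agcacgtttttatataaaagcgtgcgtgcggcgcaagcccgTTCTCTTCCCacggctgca

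These windows lie at chr7:24884636-24884695 on the plus strand (Rps19), chr2:39005112-39005171 on the minus strand (Rpl35), chr7:3704001-3704060 on the plus strand (Rps9), chr3:90213629-90213688 on the minus strand (Rps27), chr2:32961672-32961731 on the plus strand (Rpl12), chr4:152325686-152325745 on the plus strand (Rpl22) and chr3:28805468-28805527 on the plus strand (Rpl22l1). The run was 18 bases in Rpl35, 10 in Rpl22l1, 9 in Rps9 and in Rps27, 7 in Rpl12, 4 in Rps19 and 1 in Rpl22, although longer runs of C and T lie farther from the start in some windows. A run of at least 8 bases lay there in 24 of the 75 starts (32%), against 3081 of 32851 starts of all genes with a promoter (9.38%). The motif CCGGAAG, a core bound by ETS factors, was found on either strand of the 300-base promoter in 27 of 75 (36%), against 2910 of all starts (8.86%). A RefSeq start can differ from the start a cell uses, so a short run here says only that no long run overlaps the 5 bases on either side of the RefSeq start. The shown starts lie 38 (Rps19), 88 (Rpl35), 48 (Rps9), 3 (Rps27), 153 (Rpl12), 127 (Rpl22) and 72 (Rpl22l1) bases from the start of the gene's main transcript. A marked run, long or short, need not be the TOP tract of the messenger that these cells make.

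Ribosomal protein transcripts were abundant and nearly universal. Of the 85 genes, 78 were detected in at least 90% of kept cells, and their mean levels ran from 80.01 FPKM (Rps20) to 3226 FPKM (Rps27, a zinc-finger protein of the small subunit), with a median of 792.6 over all 85. Rpl41, Rps28, Rps18 and Rpl32 followed Rps27, at 2707, 2341, 2181 and 1997 FPKM. Rpl7l1, a paralogue of Rpl7, was detected in 81.5% of cells at a mean of 79.2 FPKM. Rps3a2, annotated as a processed pseudogene, had a mean of 5.48 FPKM. Rpl39l, a paralogue of Rpl39 known from the testis, was detected in 2.58% of cells with a mean of 0.800 FPKM. Rpl3l, known from muscle, Rpl10l, known from the testis, and Rps3a3 stayed below a mean of 1 FPKM over the states and were not tested, which left 82 tested genes.

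The entry named Rpl24 was not Rpl24. It had a mean of 6.32 FPKM, and its Ensembl identifier is that of Zbtb11, a neighbouring zinc-finger gene, in the GENCODE annotation. The identifier of Rpl24 itself stands in the table under the name RPL24, which the case-sensitive rule does not take. The other 84 identifiers matched their names, 83 of the 85 are annotated as protein coding, and 2 are processed pseudogenes (Rps3a2 and Rps3a3). The tested genes include Rps3a2 and the entry named Rpl24. Mouse ribosomal protein genes have many near-identical pseudogene copies, so how the authors' counting shared reads between a gene and its copies leaves all single-gene levels uncertain.

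As a share of each cell's FPKM outside hormone, predicted, small RNA and mitochondrial genes, the 85 genes together took 5.002% to 32.7%, with a median of 11.4%. Among the 5 states it was highest in Neurog3-only cells in every set that held more than 1 of them. Its set median was 10.3% (E11.5), 13.52% (E12.5), 16.8% and 15.1% in the first and second run of E13.5, 12.49% and 15.1% in those of E14.5, and 12.3% and 15.2% in those of E15.5. In Neurog3 and Fev cells the medians in the same order from E13.5 were 12.1%, 10.2%, 10.02%, 12.3%, 10.1% and 11.51%. In Fev-only cells they were 11.2%, 7.83%, 8.56%, 9.96%, 8.10% and 11.01%. Each of these sets was below its own Neurog3-only median, although the ranges of Neurog3-only sets and Neurog3 and Fev sets overlapped.

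In most sets hormone cells lay below Fev-only cells too, except glucagon cells in the second run of E13.5, at 9.62% against 7.83%. Glucagon cells had medians of 7.76% (E12.5), 9.62% (E13.5, second run), 6.61% and 9.07% (E14.5) and 9.37% (E15.5, second run). Insulin cells had 8.70% (E14.5, second run), 7.25% and 9.07% (E15.5). All 3 insulin sets and all 5 glucagon sets were below every Neurog3-only set median, the lowest of which was 10.3%.

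Within a set, the share relative to Neurog3-only cells was 0.764 ± 0.058 in Neurog3 and Fev cells (SD, n = 6 sets), 0.651 ± 0.069 in Fev-only cells (n = 6), 0.591 ± 0.042 in glucagon cells (n = 5) and 0.587 ± 0.010 in insulin cells (n = 3). Cell by cell, from E13.5 on, 68 of 70 Fev-only cells (97.1%) lay below the Neurog3-only median of their own set, as did 76 of 83 Neurog3 and Fev cells (91.6%), 38 of 43 glucagon cells (88.4%) and 52 of 55 insulin cells (94.5%). All 4 ratios are set against the same Neurog3-only cells, so they are not independent of one another.

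**Figure D1:**
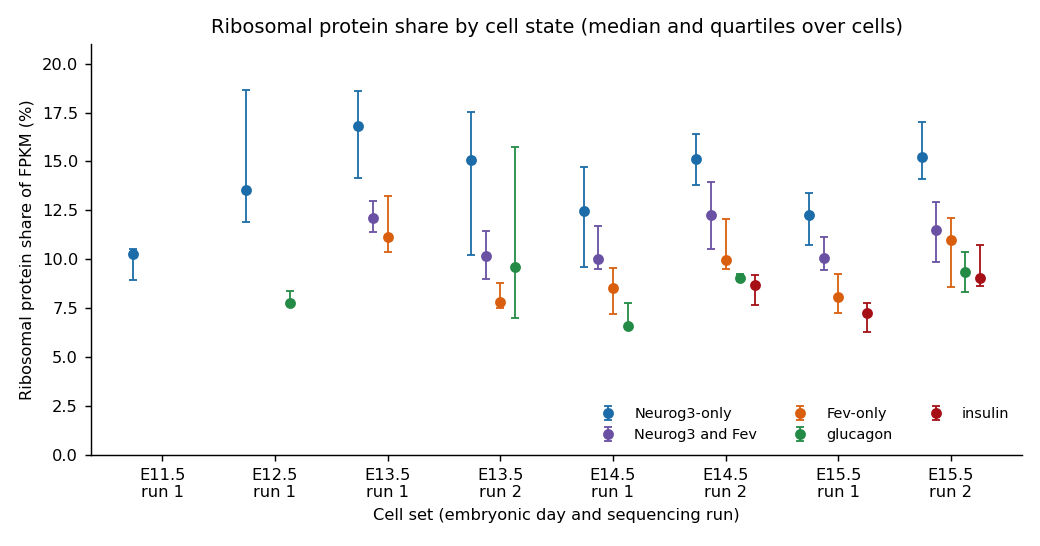
Share of each cell's FPKM taken by the 85 ribosomal protein genes (percent, vertical axis), outside hormone, predicted, small RNA and mitochondrial genes, by day and run (horizontal axis) and cell state (colour). Points are medians and bars the quartiles over cells. Neurog3-only cells have set medians of 10.3% to 16.8%, and Fev-only cells of 7.83% to 11.2%.

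Among Neurog3-only, Neurog3 and Fev, and Fev-only cells of one set, the share was correlated with the level of Neurog3 itself. Spearman's rho across the 42 to 67 cells of a set ran from 0.56 to 0.67 over 6 sets, with a median of 0.61. With Fev it ran from -0.55 to -0.31. With the number of cell cycle genes a cell held, it ran from 0.25 to 0.54, with genes detected from -0.46 to 0.10, and with fragments from -0.11 to 0.23. Among the cells holding fewer than 6 cell cycle genes, rho with Neurog3 was 0.55 to 0.67. Inside the Neurog3-only state alone it was 0.17 to 0.48. These are descriptions: cells of a set share a day and a run, and the states themselves are cut by Neurog3 and Fev.

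**Figure D2:**
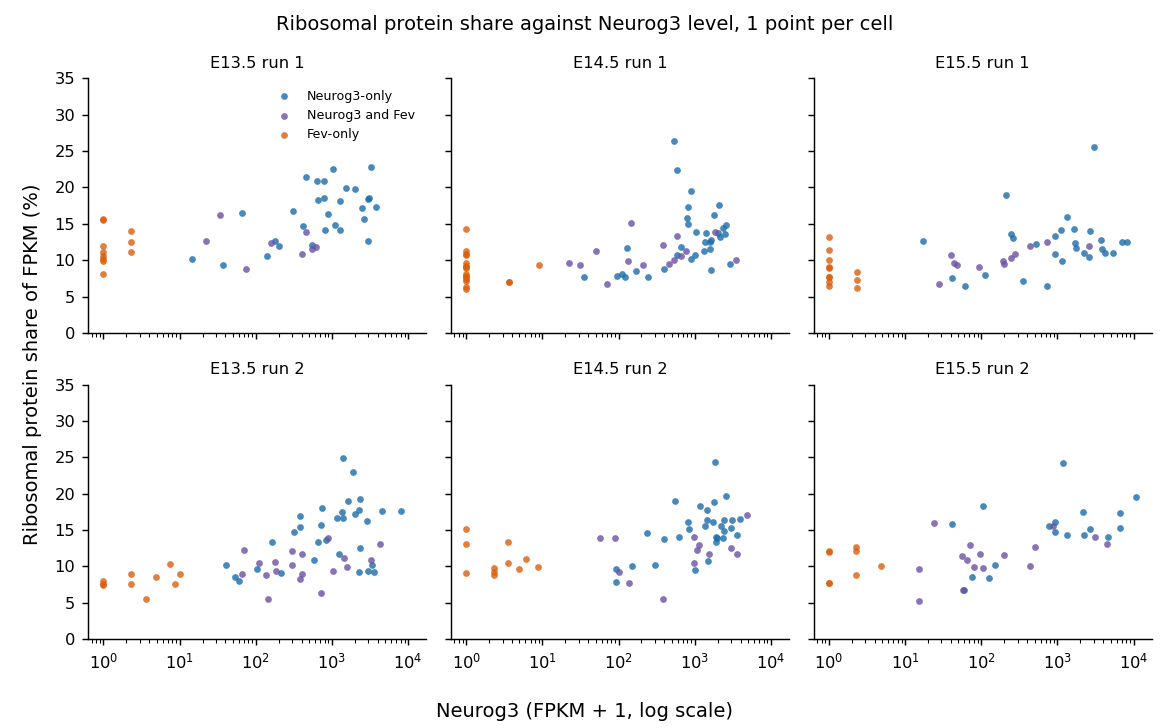
Share of FPKM taken by the ribosomal protein genes (percent, vertical axis) against Neurog3 level (FPKM + 1, horizontal log axis) for Neurog3-only, Neurog3 and Fev, and Fev-only cells, one panel per set from E13.5. Cells with little Neurog3 sit low in each panel, with Spearman's rho from 0.56 to 0.67.

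Most gene-level calls were made in cells that held Fev without Neurog3. In Fev-only cells 47 of the 82 tested ribosomal protein genes fell against Neurog3-only cells and none rose (limma, adjusted p under 0.05 with Benjamini-Hochberg adjustment over 15814 genes), where 5.74% of all tested genes were called, 3.81% lower and 1.93% higher. The median log2 difference was -0.67 over the 82 genes, a median fold of 0.631, against -0.15 over all genes, and 81 of 82 differences were below 0. The 47 falls ran from -0.53 to -1.29, folds of 0.694 to 0.410, and each of the 47 was lower in 6 of 6 sets. Small-subunit genes made 24 of 33 such calls, with a median of -0.73, and large-subunit genes 23 of 49, with a median of -0.60. No test of that contrast between subunits was made. Leaving out 1 set at a time gave 24 to 47 calls, with 24 without the second run of E13.5, 31 and 30 without the first and second run of E15.5. Asking for Neurog3 and Fev at 50 FPKM left 2 sets, 0 calls and a median of -0.04, and weighting the means by cell number left 10 calls. The share of all tested genes called in these other fits is not given here. Their counts therefore do not show whether the members lost calls faster than all genes.

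Cycling and marker content moved with this result. Cells holding at least 6 of 26 cell cycle genes were 69 of 186 Neurog3-only cells (37.1%) and 1 of 70 Fev-only cells (1.43%). Without such cells, a comparison added after the data were seen, 19 genes fell and the median was -0.49. Without cells holding at least 3 such genes 4 sets remained, 0 genes passed, and the median was -0.25, against 0.09 over all genes. The summed level of the acinar or tip markers had set medians of 0 to 714 FPKM in Neurog3-only cells and 0 to 3.82 FPKM in Fev-only cells, and erythroid markers were at 0 in every set median of both. The Neurog3-only range, like the 186 cells, includes E11.5 and E12.5, which hold no Fev-only cells. These values are therefore not matched by set. Without cells holding markers of another type, 65 genes fell. The share of all tested genes called after these exclusions is not given here. The counts therefore do not show a change particular to the members. The part of the cell cycle in the result was not tested further.

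Among small-subunit genes, Rps19, a protein needed for processing of the 18S rRNA precursor and mutated in human Diamond-Blackfan anaemia, fell most clearly. Its set means were 1125, 1806 and 4775 FPKM (lowest, median and highest of 8 Neurog3-only sets) and 619.9, 890.4 and 2425 FPKM in the 6 Fev-only sets. The ranges overlapped through the first run of E13.5, which was the highest set in both states, while within every set the Fev-only mean was the lower. The log2 difference was -1.18 (SE 0.17, adjusted p = 0.000254, limma). Rps9, which lines the entry channel of the messenger, had 1313, 1926 and 3768 FPKM in Neurog3-only sets and 873, 1188 and 2118 FPKM in Fev-only sets. It fell by 0.85 (SE 0.15, adjusted p = 0.00177, limma). Here too the highest set of both states was one set, and Fev-only means were lower within each.

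Rps12, a small-subunit protein, fell by 1.16 on the log2 scale (SE 0.22, adjusted p = 0.00257, limma). Rps6, the substrate of S6 kinase downstream of mTOR, had set means of 1112, 1759 and 3571 FPKM in Neurog3-only cells and 921.5, 1250 and 2301 FPKM in Fev-only cells. It fell by 0.66 (SE 0.15, adjusted p = 0.0103, limma), less than Rps19 in size. Rpsa, the small-subunit protein also known as the laminin receptor precursor, had 743, 826 and 1403 FPKM against 382, 536 and 859.7 FPKM. Its fall was 0.77 (SE 0.19, adjusted p = 0.0177, limma). Rps4x, encoded on the X chromosome, and Rps24 fell by 0.80 and 0.65. Of Rps24, whose transcript is spliced into isoforms that differ at the 3′ end of the coding sequence, isoform Rps24-201 held 91.9% to 97.0% of coding isoform FPKM in Neurog3-only sets and 93.3% to 98.3% in Fev-only sets, so the ranges overlapped.

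Among large-subunit genes, Rpl12, at the base of the stalk where elongation factors bind, had 123, 179 and 273 FPKM in Neurog3-only sets and 63.2, 75.9 and 154 FPKM in Fev-only sets. The log2 difference was -1.24 (SE 0.19, adjusted p = 0.000442, limma). Rpl32 had 1161, 2036 and 5365 FPKM against 902, 1052 and 3202 FPKM, a difference of -1.001 (SE 0.15, adjusted p = 0.000377, limma). Rpl35, at the exit of the polypeptide tunnel and the gene with the 18-base pyrimidine run at its RefSeq start, had 342, 485 and 1429 FPKM against 196, 239 and 929 FPKM. It fell by 1.02 (SE 0.19, adjusted p = 0.00203, limma). Most Fev-only sets of these 3 genes lay below the Neurog3-only median, and the first run of E13.5 was again the highest Fev-only set.

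Rpl36a had the largest called fall by size, 1.29 on the log2 scale (SE 0.26, adjusted p = 0.00474, limma). Its set means were 359.99, 510.2 and 1113.6 FPKM in Neurog3-only cells and 146.2, 214.6 and 697.5 FPKM in Fev-only cells. The ranges overlapped. Rpl39, a small protein of the exit tunnel, fell by 1.07 (adjusted p = 0.0193, limma). Of the stalk proteins that recruit elongation factors, Rplp0 and Rplp2 fell by 0.74 and 0.67 (adjusted p = 0.00818 and 0.0476, limma), and Rplp1 had a difference of -0.78 that did not pass (adjusted p = 0.0695, limma). Rpl3, near the peptidyl transferase centre, fell by 0.72 and Rpl37 by 0.74. Rpl7 and Rpl10 had smaller differences of -0.31 and -0.40 that did not pass (adjusted p = 0.178 and 0.239, limma).

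A handful of tested genes did not share the direction clearly. Rpl18, a large-subunit gene, had medians of 988.8 FPKM in Neurog3-only sets and 966 FPKM in Fev-only sets, a difference of -0.06 (SE 0.19, adjusted p = 0.929, limma). Rpl7l1 differed by -0.05 (SE 0.43) and Rpl22l1 by -0.12 (SE 0.24, adjusted p = 0.880, limma), with Rpl22l1 lower in 2 of 6 sets. The sign of the Rpl22l1 fit was therefore not that of most sets. The only difference above 0 was that of the entry named Rpl24, at 0.07 (SE 0.44, adjusted p = 0.976, limma), which carries the identifier of Zbtb11. The entry RPL24, with the identifier of Rpl24 itself, was called lower at -0.63 (SE 0.17, adjusted p = 0.0330, limma).

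**Figure D3:**
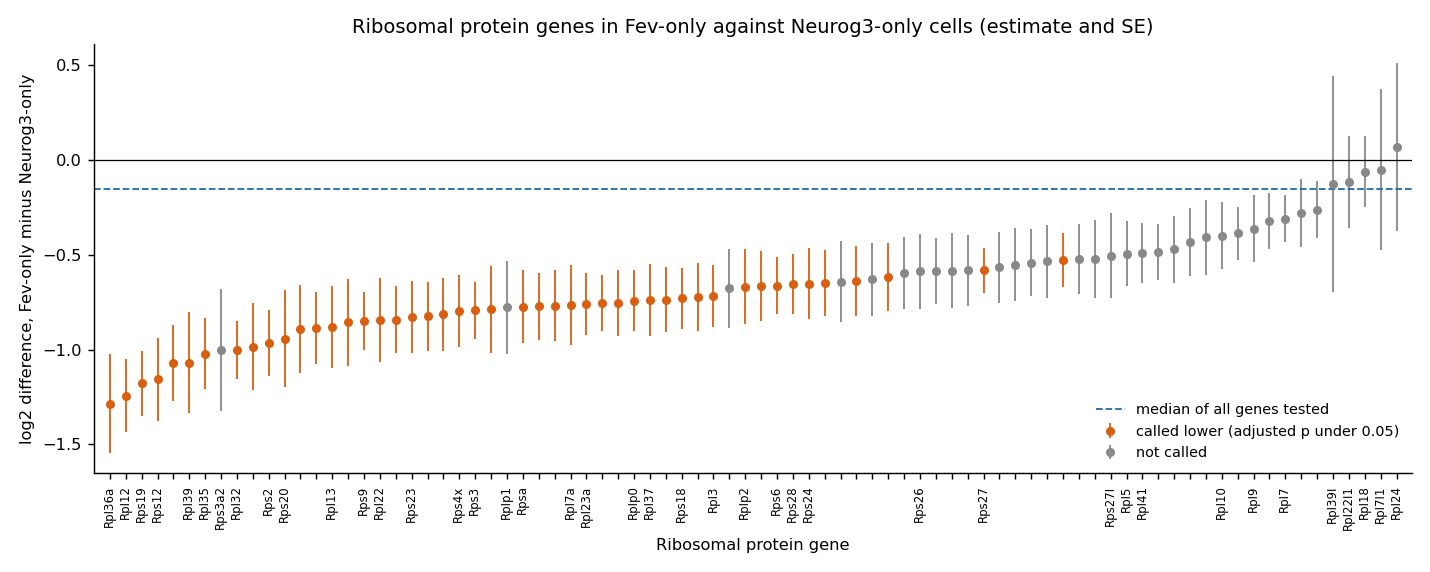
Log2 difference of Fev-only from Neurog3-only cells for the 82 tested ribosomal protein genes (vertical axis), ordered by size along the horizontal axis (genes described in the text are labelled), with the standard error of the limma fit as bars and the median of all genes tested as a dashed line. Called genes lie between -1.29 and -0.53, and 81 of 82 genes lie below 0.

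Cells holding both Neurog3 and Fev already lay below Neurog3-only cells in most sets. Against Neurog3-only cells 4 of 82 genes fell and none rose, where 1.11% of all tested genes were called, 0.594% lower and 0.512% higher, and all 82 differences were below 0. The median was -0.45, against -0.09 over all genes. Rpl35 had 196, 303 and 823 FPKM in the 6 Neurog3 and Fev sets and fell by 0.91 (SE 0.19, adjusted p = 0.0162, limma). Rps19 had 964, 1219 and 2233 FPKM and fell by 0.75 (SE 0.17, adjusted p = 0.0313, limma). Both ranges overlapped with the Neurog3-only sets.

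Rps27, the most abundant member, had 2140, 2663 and 5429 FPKM in the Neurog3 and Fev sets, against 1698, 2907 and 9063 FPKM in the Neurog3-only sets. It fell by 0.51 (SE 0.12, adjusted p = 0.0392, limma). Rpl12 fell by 0.79 (SE 0.19, adjusted p = 0.0463, limma). The set medians over the 82 differences were -0.64 and -0.73 (runs of E13.5), -0.25 and 0.02 (E14.5) and -0.36 and -0.33 (E15.5), so E13.5 was lowest and the second run of E14.5 near 0. Without cells holding markers of another type 34 genes fell, and without cells holding at least 6 cell cycle genes 1 did. The share of all tested genes called after either exclusion is not given here. The 4 calls needed nearly all sets: 0 were made without the first run of E13.5 or of E14.5 or without either run of E15.5, 1 without the second run of E13.5 and 2 without that of E14.5.

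In glucagon cells 6 of 82 genes fell and none rose, where 5.59% of all tested genes were called, 1.49% lower and 4.1% higher. The median was -0.36, against -0.01 over all genes, and 73 of 82 differences were below 0. Rps23, which lies at the decoding centre, had 334, 705 (E13.5, second run), 251.45, 275 and 470.2 FPKM in the 5 glucagon sets in order of day and run, against 491 to 1692 FPKM in Neurog3-only sets. It fell by 0.96 (SE 0.20, adjusted p = 0.00658, limma), lower in 5 of 5 sets, and the second run of E13.5 was the one glucagon set inside the Neurog3-only range.

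Among the others, Rps9, Rps19, Rpl35 and Rpl32 fell in glucagon cells, by 0.70, 0.75, 0.70 and 0.55 (adjusted p = 0.0115, 0.0164, 0.0382 and 0.0454, limma). The set medians over the members were far apart, from -1.17 (E12.5) and -0.59 (E14.5, first run) to -0.11 (E14.5, second run), 0.01 (E13.5, second run) and 0.14 (E15.5, second run). The count was 3 without E12.5, 13 without the second run of E13.5, 1 and 2 without the first and second run of E14.5 and 1 without the second run of E15.5. It was 0, with a median of 0.07, once cells holding markers of another type were left out. Mesenchyme markers were the list most often held, by 7 of the 51 glucagon cells, with set medians of its summed level of 0.405 to 58.4 FPKM in glucagon cells and 0 to 0.135 FPKM in Neurog3-only cells. Cells with at least 6 cell cycle genes were 9 of 51 (17.6%), and without them 1 gene fell and 2 rose, with a median of -0.01.

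In insulin cells 19 of 82 genes fell and none rose, where 3.25% of all tested genes were called, 1.25% lower and 2% higher. The median was -0.57, against -0.03 over all genes, 78 of 82 differences were below 0, and each of the 19 genes was lower in 3 of 3 sets. Rps19 had 915, 875 and 1049.7 FPKM in the 3 insulin sets, all below the lowest of the Neurog3-only sets at 1125 FPKM. It fell by 1.04 (SE 0.22, adjusted p = 0.0108, limma). Rps4x had 529, 459 and 727 FPKM, below a lowest Neurog3-only set of 849 FPKM, and fell by 1.10 (SE 0.25, adjusted p = 0.0158, limma).

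Rpl36a, Rps20 and Rpl22 fell in insulin cells, with log2 differences of -1.23, -1.20 and -1.16 (adjusted p = 0.0477, 0.0490 and 0.0279, limma). Rpl32 fell by 1.05, Rps9 by 0.95, Rpsa by 0.93, Rps2 by 0.83 and Rps27 by 0.56, and the others called included Rps26, Rpl35, Rpl5, Rpl23a, Rpl9, Rps3 and Rps28. Rpl5 is known, with 5S RNA, to bind Mdm2. The set medians over the members were -0.60, -0.52 and -0.21. Cells with at least 6 cell cycle genes were 3 of 57 (5.26%), and without such cells 6 genes fell. The count was 1, 1 and 3 without the second run of E14.5, the first of E15.5 and the second of E15.5, and 10 without the first run of E13.5 or of E14.5, which hold Neurog3-only but no insulin means.

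Hormone transcripts take part of the FPKM of hormone cells, with set medians of 0.129% to 6.79% in glucagon and 1.95% to 14.7% in insulin cells. The summed FPKM per cell differed too. Its glucagon medians were 667100 (E12.5), 1310300 (E13.5, second run), 879070 and 1270100 (E14.5) and 1419100 (E15.5, second run). Neurog3-only medians of those sets were 752050, 980850, 829430, 1000600 and 826460. Insulin medians were 885700 (E14.5, second run), 1047900 and 1065100 (E15.5), against 1000600, 800120 and 826460. Rescaling changed this sum as well as the hormone part. With FPKM rescaled over the genes outside hormone, predicted, small RNA and mitochondrial genes, 58 ribosomal protein genes were called lower in glucagon and 55 in insulin cells, where 2.94% and 1.65% of the 19131 genes tested on that scale were called lower. That scaling moved the median of all genes to -0.29 and -0.17, and the members' medians relative to it were -0.31 and -0.53. The 6 and 19 genes called before were all among those called. In Fev-only cells the rescaled count was 63, with 45 of the 47 genes among them and 3.32% of all genes called lower.

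All 4 comparisons share the Neurog3-only means. Rpl35 and Rps19 were called lower in each of the 4, 4 genes in 3 (Rpl32, Rps27 and Rps9 among them), 11 genes in 2, 34 in 1 and 31 in none. Rps19 differed by -0.75 in Neurog3 and Fev, -1.18 in Fev-only, -0.75 in glucagon and -1.04 in insulin cells.

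Insulin cells set directly against glucagon cells, in the fit over all sets, of which 2 held both states, gave no called member (limma; 11 of 82 at an unadjusted p under 0.05), where 0.196% of all tested genes were called, 0.0696% lower and 0.126% higher. The median was -0.25, against -0.07 over all genes. In each of the 2 sets with both states, 70 of 82 members were lower in insulin cells.

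Within the Neurog3-only state, no ribosomal protein gene was called to change with day. The slope along day called 0 members and 0% of 15047 genes, with 0 members at an unadjusted p under 0.05, and a member median of 0.08 log2 units per day. Between runs, 0 members were called in the days that had both (limma; 8 at an unadjusted p under 0.05), where 0.292% of 14744 genes were called, 0.0678% lower and 0.224% higher. The median of run 2 against run 1 was -0.43, against -0.22 over all genes, and it turned to 0.11 on the rescaled FPKM, where that of all genes was 0.33. No member's Fev-only difference was called to depend on day or run (limma interaction terms over 6 sets, 0 called, lowest adjusted p 0.722 for day and 0.808 for run, limma). For either term 0 of all 15814 tested genes were called, so the lack of calls is not particular to the members. The set medians of the members' Fev-only differences ran from -0.44 to -0.88, in the first and second run of E13.5.

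The sets low in GC-rich transcripts were not low in ribosomal protein transcripts as a group. Over 16824 genes in Neurog3-only cells, the genes in the top quartile of GC had a median log2 difference of E12.5 from E11.5 of -0.75, against 0.00 in the bottom quartile, and of the first from the second run of E13.5 of -0.12 against 0.01. The main transcripts of the members hold 40.6% to 61.2% GC, with a median of 51.1%. Their median difference was 0.57 at E12.5, with 75 of 82 higher, and 1.13 in the first run of E13.5, with 78 of 82 higher. These differences use FPKM before rescaling. Predicted and small RNA entries held 7.90% of FPKM (median of Neurog3-only cells) in the first run of E13.5 and 41.8% in the second. They held 15.55% at E12.5 and 21.9% at E11.5. The ribosomal protein share, which leaves such entries out, was 16.8% against 15.1% in the runs of E13.5. It was 13.52% at E12.5 and 10.3% at E11.5. The part of scaling in the differences was not tested. Across the members Pearson's r of the log2 differences with GC was -0.15 and -0.06, over genes that share the same libraries.

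Only Rpl13 and Rps2 stood far on the low side in both low-GC sets. At E12.5 the low-level entries Rpl39l and Rpl24 lay low too, with log2 differences from E11.5 of -2.03 and -1.23. Rpl13, a large-subunit protein, had 71.3 FPKM at E12.5 and 134 FPKM in the first run of E13.5, against 1561 to 2014 FPKM in the other 6 Neurog3-only sets. Rps2, at the messenger entry, had 73.2 and 64.6 FPKM in those sets, against 523 to 982 FPKM in the others. Their transcripts hold 57.1% and 56.5% GC, while Rpl35 with 61.2% and Rps19 with 59.6% were higher in the first run of E13.5, by 1.66 and 1.32. Both genes were low in every state measured in those sets: Rpl13 had 100.7 FPKM and Rps2 23.1 FPKM in Fev-only cells of the first run of E13.5. Within sets, Rpl13 fell by 0.88 and Rps2 by 0.97 in Fev-only cells (adjusted p = 0.0171 and 0.00194, limma). Without both low-GC sets, 34 ribosomal protein genes fell in Fev-only cells. The share of all tested genes called in that fit is not given here.

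**Figure D4:**
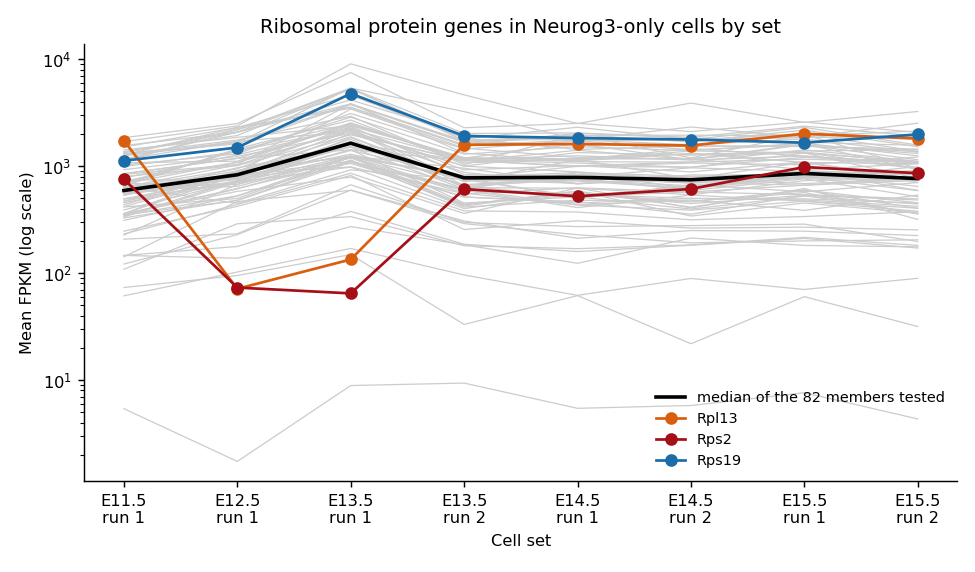
Mean FPKM (vertical log axis) of the tested ribosomal protein genes in Neurog3-only cells of each of the 8 sets (horizontal axis), with grey lines for single genes (those at 1 FPKM or less in a set are left out), a black line for the median of the 82, and colours for Rpl13, Rps2 and Rps19. Rpl13 and Rps2 drop to 71.3 and 73.2 FPKM in the E12.5 set and to 134 and 64.6 FPKM in the first run of E13.5, where Rps19 is at 4775 FPKM.

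Among Neurog3-only cells, most members varied together from cell to cell. Over 6 sets, each of the 78 common genes was correlated with the sum of the other members, with a median Spearman's rho of 0.56, and 57 genes were above 0.5. Rps27l, a paralogue of Rps27 known as a p53 target, had the lowest value at 0.02, followed by Rpl22l1 at 0.24, Rpl18 at 0.28, Rpl7a at 0.29 and Rpl10 at 0.30. These values share depth and library, and are given as a description.

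Paralogue pairs differed in how they divided their transcripts. Rpl22, an RNA-binding large-subunit protein with a role in mouse T cell development, is known in mouse cells to hold down the messenger of its paralogue Rpl22l1. Rpl22 had 198, 275 and 671 FPKM in Neurog3-only sets and 104, 189 and 357 FPKM in Fev-only sets, and fell by 0.84 (SE 0.22, adjusted p = 0.0262, limma). Rpl22l1 had 109, 183 and 338 FPKM in Neurog3-only sets and 154, 205 and 358 FPKM in Fev-only sets, with no called difference in any state. In the 3 insulin sets Rpl22 had 133, 137 and 120.3 FPKM and Rpl22l1 273, 243 and 219.98 FPKM, so Rpl22l1 was the higher of the pair in each.

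The part of Rpl22l1 in the FPKM of the pair was 33.5% to 55.4% in Neurog3-only sets, 33.1% to 46.6% in Neurog3 and Fev sets, 50.1% to 65.9% in Fev-only sets, 37.4% to 61.5% in glucagon sets and 63.9% to 67.2% in insulin sets. Insulin sets stood above every Neurog3-only set, and Fev-only sets overlapped them only through E12.5. Within sets it was higher by 14.4 points in Fev-only cells (SD 8.21, 6 of 6 sets, exact two-sided sign-flip p = 0.0313, the smallest that 6 sets allow, adjusted p = 0.375 over 12 comparisons). The adjusted value did not pass. In insulin cells it was higher by 21.8 points (3 of 3 sets, exact p = 0.25, the smallest that 3 sets allow). In Neurog3 and Fev cells the mean difference was 0.23 points, higher in 3 of 6 sets.

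Other pairs were also followed. Rps27l held 5.22% to 15.01% of the FPKM of Rps27 and Rps27l in Neurog3-only sets, with a mean difference of 0.71 points in Fev-only cells (3 of 6 sets) and 4.26 points in insulin cells (3 of 3 sets, exact p = 0.25, the smallest that 3 sets allow). Rpl7l1 gained 0.66 points against Rpl7 in Fev-only cells (4 of 6 sets) and 3.45 points in glucagon cells (5 of 5 sets, exact p = 0.0625, the smallest that 5 sets allow). None of these passed the adjustment over the 12 comparisons.

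**Figure D5:**
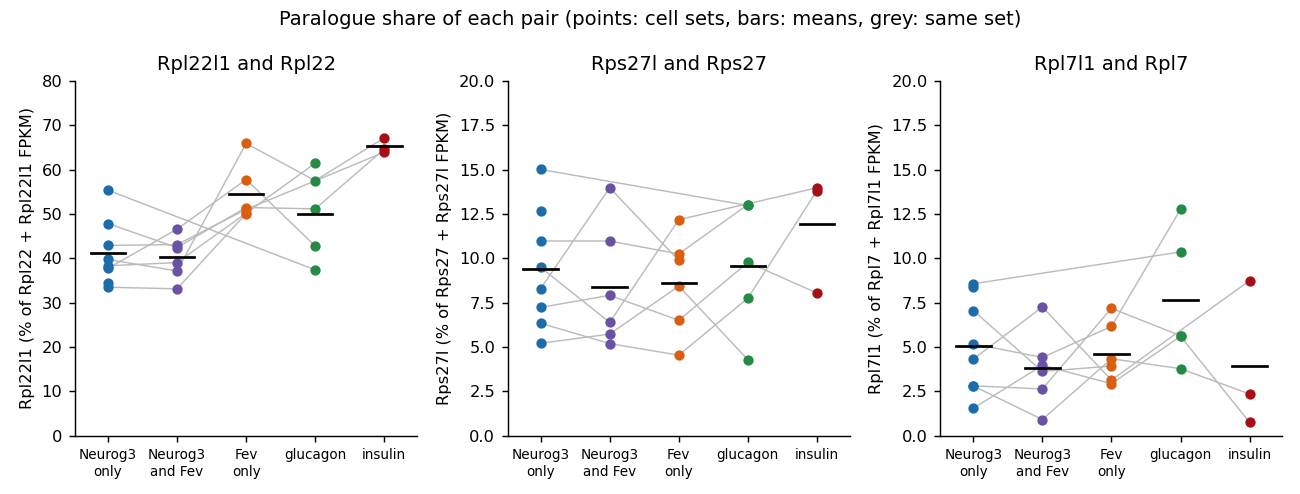
Part of each paralogue in the summed FPKM of its pair (percent, vertical axis) for each set, by cell state (horizontal axis), with bars for means over sets and grey lines joining a set. Rpl22l1 lies at 33.5% to 55.4% in Neurog3-only sets, 50.1% to 65.9% in Fev-only sets and 63.9% to 67.2% in insulin sets.

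Lists of genes that work with ribosomal proteins are set here beside the 3.81% of all tested genes called lower in Fev-only cells. The shares of the biogenesis, initiation and mitochondrial lists are near it or below it. Of 40 ribosome biogenesis genes 2 fell and none rose: Nhp2, of the H/ACA particles that guide pseudouridylation, which fell by 2.63 (SE 0.60, adjusted p = 0.0109, limma) and Nolc1, a nucleolar phosphoprotein, by 1.43 (SE 0.35, adjusted p = 0.0170, limma), with a list median of -0.52. Of 21 translation factors with TOP messengers 4 fell, among them Gnb2l1, the ribosome-bound scaffold, by 0.82, Fau, which encodes a ribosomal protein fused to a ubiquitin-like protein, by 0.47, and the elongation factor Eef1a1 by 0.46. The list median was -0.38. Of 25 genes of translation initiation and control Eif4g2 fell by 0.64, and of 76 mitochondrial ribosomal protein genes 1 fell, with a median of -0.23. Of 26 cell cycle genes 9 fell, with a median of -1.93. These counts stand beside the 47 of 82 ribosomal protein genes as descriptions, with no test between lists.

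In glucagon cells the same lists held genes that rose. There, 4.1% of all tested genes were called higher and 1.49% lower. Of 25 initiation genes 3 rose: Eif4a2, Eif4e and Eif5, by 1.09, 0.77 and 1.22 (adjusted p = 0.00562, 0.0147 and 0.0180, limma). Of 76 mitochondrial ribosomal protein genes 9 rose and 1 fell, with a median of 0.26. Of the 21 genes of the TOP list, Hnrnpa1 fell by 1.37 (adjusted p = 0.00305, limma). Whether these calls hold without cells holding markers of other types is not given here. In insulin cells, where 2% of all tested genes were called higher, 1 of 76 mitochondrial ribosomal protein genes rose, with a list median of 0.28. No gene of the biogenesis, TOP or initiation lists was called there. In Neurog3 and Fev cells, where 1.11% of all tested genes were called, no gene of these lists or of the cell cycle list was called.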

How the data were processed

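Single eGFP-sorted cells were profiled by SMART-seq, which has no molecular identifiers and marks no strand, with Nextera XT libraries. The authors deposited FPKM values per gene, and per transcript isoform, for each cell. TopHat2 2.0.13 and Cufflinks 2.2.0 are named with the build mm10, per the submitters' processing notes; no source used here gives the annotation. FPKM holds no counts, so no count test was used. Fragments per cell are the labels' total mass, with 0 value columns unmapped.

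Cells with at least 100000 fragments and 1500 genes at 1 FPKM or more were kept. State means over 5 or more cells of a set were analysed as log2(mean FPKM + 1), which understates changes of low genes. The 28 means were fitted with limma 3.58.1 in R 4.3.3 (intensity trend, set as a block, 16 residual degrees of freedom, two-sided, Benjamini-Hochberg over all genes with a mean of at least 1 FPKM), called at an adjusted p under 0.05. Not every set held every state, so a fitted difference also draws on sets that do not hold both of its states. It can differ from the mean of the within-set differences. Paralogue percentages were compared with exact sign-flip tests (Python 3.11.15, scipy 1.17.1). The fit was tested on simulated data. Promoters came from RefSeq, and GC content and identifiers from GENCODE vM21 transcripts. The named genes were a fixed set of core and paralogue genes and up to 6 called genes per direction and comparison by size of difference. Genes added after their values were seen were Rpl18, the Rpl24 entries and those named for their rank in abundance or correlation. Rps4l, on that set, was not analysed here. The members and lists were chosen with earlier results of these data known. Alternatives covered thresholds, filters, scaling, weights, blocks, runs, sets and cell exclusions. Results of a few genes are not reported here.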

Additional observations from a re-analysis of the deposited data

Results flagged for a closer look

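In each gene named throughout the report, the within-set log2 differences were searched for a set far from the others. Of 81 such groups of sets 5 held one, and chance gives about 1 in 20. In glucagon cells of E12.5, Rpl10 differed from Neurog3-only cells by -1.32, against 0.25 to 0.61 in the other 4 sets. In the same cells Rplp1 differed by -1.71, against -0.29 to 0.18 in the others. That set rests on 5 glucagon cells. In glucagon cells of the second run of E15.5, Rpl22 differed by 0.91, against -0.80 to -0.45 in the others. In Fev-only cells, Rps2 differed by -1.44 in the first run of E13.5, one of the sets low in GC-rich transcripts, against -0.90 to -0.62 in the other 5 sets. Rps24 differed by -1.14 in Fev-only cells of the second run of E13.5, against -0.56 to -0.43 in the others.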

How the results depend on the processing

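Counts of called ribosomal protein genes are given in the order Neurog3 and Fev, Fev-only, glucagon, insulin (each against Neurog3-only), with main counts of 4, 47, 6 and 19. The share of all tested genes called is given above only for the main fit and, in part, for the rescaled FPKM. For other settings, here and above, a changed count does not show whether the members changed more than all genes. With no filter on low values Neurog3 and Fev and insulin gave 1 and 8. With hormones at 10 FPKM they were 0, 19, 2 and 0, and with Neurog3 and Fev at 50 FPKM 0 in all 4. Rescaling to the 4 classes left out gave 7, 63, 58 and 55, and rescaling without hormones 8, 65, 45 and 50. Means weighted by cell number gave 0, 10, 0 and 2, and no block for the set 0, 3, 0 and 3. Run 1 alone gave 0, 0, 12 and 0, and run 2 alone 0, 1, 0 and 0. Without the low-GC sets Neurog3 and Fev and glucagon gave 2 and 2. Glucagon gave 2 with a higher minimum of fragments per cell and 0 with 10 cells per mean. Without cells holding markers of other types they were 34, 65, 0 and 30. Leaving out 1 set at a time gave 0 to 5, 24 to 47, 1 to 13 and 1 to 21. In comparisons added after the data were seen, cells holding at least 3 cell cycle genes left out gave 0, 0 and 0 (glucagon gave no value), and at least 6 gave 1, 19, 3 and 6.

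Insulin against glucagon called 1 with 10 cells per mean and 2 without cells holding markers of other types, and run 2 against run 1 called 2 with the mean of log2 values, where the main counts were 0. At 50 FPKM the Fev-only differences of Rps6, Rpl22, Rps9 and Rpsa turned to 0.066, 0.037, 0.087 and 0.11, and without cells holding at least 3 cell cycle genes Rps2 in insulin cells turned to 0.070. Over 47 named results and 1263 alternatives 739 kept their call, 519 lost it and 5 reversed. The causes were not tested beyond the fewer sets or cells some alternatives leave. No paired analysis was possible because the replicate numbers, unlike the sets that the fits already block on, only name cells in accession order. Few cells per mean and 3 to 6 sets per comparison limit what could be called.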

Other observations

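Cells outside the endocrine states are described by values alone. At E11.5, 16 cells holding at least 3 acinar or tip markers had a median ribosomal protein share of 15.3%, and 18 cells holding at least 3 leukocyte markers had 12.01%, against 10.3% in the 7 Neurog3-only cells. At E12.5, 28 cells holding at least 3 acinar or tip markers had 20.1%, 13 cells with as many endothelium markers 17.5% and 21 with as many leukocyte markers 14.7%, against 13.52% in the 7 Neurog3-only cells. From E13.5 on, 13 of 14 double hormone cells lay below the Neurog3-only median of their own set, as did 53 of 58 cells of none of the states.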
